A study of Bos taurus with 15 samples.

Results

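The genes described here are 30 genes by which a cell makes, takes up, stores and exports cholesterol, measured in the testis of cattle. They were chosen by name from the pathway: enzymes of the mevalonate and sterol arms of synthesis, the SREBP control proteins, the proteins of lysosomal transport and ester storage, and the export genes with their LXR receptors. Of the 30 genes, 29 had a probe on the array, and STARD4, a cytosolic sterol carrier, had none that could be named. The 29 genes were read through 30 probes, since LSS had an additional probe, out of 21475 probes in all. Genes whose probe stood well above background in 7 or more of the 15 arrays were tested, 28 of the 29 here and 13452 on the whole array.

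The study set 8 prednisolone-treated animals against 7 untreated controls, all Bos taurus, with 1 array per animal. Treated animals received prednisolone, a synthetic glucocorticoid, over 35 days as an oral dose of 30 mg per head daily, and controls received none. Testis tissue was collected at slaughter, and its total RNA was labelled with Cyanine 3 for single-colour Agilent oligonucleotide arrays. The title of the series calls the animals cows although the tissue is testis. Age and breed are not given in the sources used here. The p-values measure the spread between these animals.

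Cholesterol is built from acetyl-CoA. The mevalonate arm makes isoprenoid units from it and joins them to farnesyl diphosphate, and the sterol arm turns farnesyl diphosphate into squalene, closes the rings to lanosterol and trims lanosterol to cholesterol. When membranes run short of sterol, SCAP escorts the SREBP transcription factors to the Golgi, where they are released to switch on the pathway, while INSIG1 holds them back. When sterol is plentiful, oxysterols activate the LXR receptors, which switch on export genes. In the testis, Leydig cells between the tubules use cholesterol for androgen synthesis, and developing sperm cells remodel their sterols and store and release cholesterol esters.

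A level is the log2 processed signal of a gene's probe minus the 75th percentile of its array, so 0 is the brightness of that percentile and 1 unit is a factor of 2. Levels of different probes are not set against each other. All 28 tested genes were well above background on the 14 arrays other than that of prednisolone 30, and no probe of the set was saturated. The array of prednisolone 30 stood apart: its 75th percentile of processed signal was 49.8, against 1220 to 2780 on the other arrays, and 36.5% of its probes were well above background, against 82.2% to 89.9%. Its correlation with the other arrays over tested genes was 0.767 to 0.797, against 0.951 to 0.993 among the other 14. On this array 16 of the 28 tested genes were well above background. The 12 that were not were ACAT2, MVD, LSS, TM7SF2, NSDHL, HSD17B7, EBP, DHCR7, SREBF1, INSIG1, NPC2 and SOAT1. The values of prednisolone 30 for these genes are therefore near the background of its array. The level of prednisolone 30 lay outside the range of the other 14 animals for 17 of the 28 genes, 13 of them below and 4 above, and for 72.6% of all tested genes.

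The authors' deposited table held another measurement for this animal. After each gene was centred on the other 14 animals, scanner file and table correlated at 0.0466 for prednisolone 30, against 0.932 to 0.974 for the other animals. In the table, prednisolone 30 lay outside the other animals for 2 of the 28 genes, and for 6.35% of all tested genes. Among the tested genes the sources were farthest apart for SOAT1, FDPS, INSIG1 and SCAP. SCAP of prednisolone 30 was 1.81 below the mean of the other 14 animals in the scanner file and 0.07 below it in the deposited table, differences of -1.81 and -0.07. SOAT1 was 2.10 above that mean in the scanner file and 0.12 above it in the deposited table. Which measurement belongs to the animal was not settled. The differences between groups are therefore given with and without it, while other scalings and fits with a batch as a block hold all arrays, and correlations between animals leave it out.

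**Figure D1:**
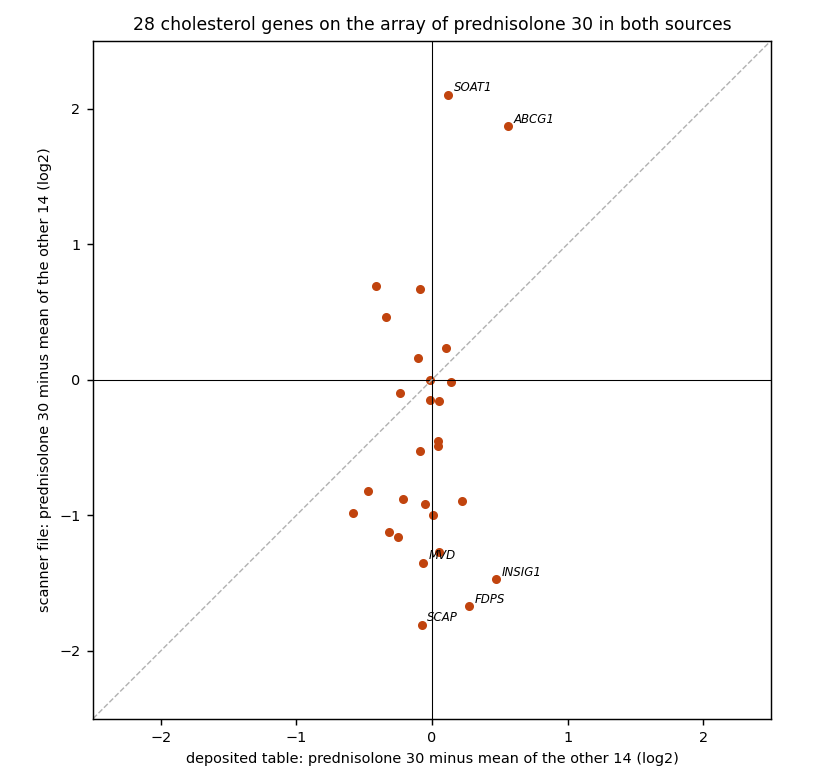
Each point is 1 of the 28 tested genes in the animal prednisolone 30, as the log2 difference from the mean of the other 14 animals, in the deposited table (x axis) and in the scanner file (y axis); the dashed line marks equality. The points spread along the y axis, from -1.81 for SCAP to 2.10 for SOAT1, and stay close to 0 on the x axis.

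The first question was whether any gene of cholesterol handling differed between prednisolone-treated and control testis. None of the 28 tested genes passed the threshold. By limma with Benjamini-Hochberg adjustment over all tested probes, 0 of the 28 genes and 0 of 13452 genes (0%) had an adjusted p under 0.05, both with all 15 arrays and without prednisolone 30. The smallest adjusted p over all genes was 0.883 with all arrays and 0.980 without prednisolone 30. At an unadjusted p under 0.05 there were 0 of the 28 genes in either fit, against 326 of all genes (2.42%) with all arrays and 559 (4.16%) without prednisolone 30. The treated and control animals overlapped in every one of the 28 genes. Over all genes, the groups did not overlap in 6 (0.0446%) with all arrays and in 9 (0.0669%) without prednisolone 30.

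The direction of the 28 differences leaned slightly downward in treated animals, and less so without prednisolone 30. With all arrays 9 genes had higher and 19 lower values in treated animals, with a median log2 difference of -0.08, while 51.9% of all tested genes had higher values with a median of 0.01. Without prednisolone 30 the counts were 12 and 16 and the median was -0.02, beside 52.5% and 0.01 over all genes. The sign of the difference turned for 7 of the 28 genes when this animal was left out. The count of higher genes also moved with the scaling. It was 5 (17.9%) with median scaling, 7 (25%) with quantile normalization and 14 (50%) with normexp background correction. Over all tested genes the share moved too, at 42.9%, 41.0% and 64.7%. The share of the set lay below that of all genes in each of these settings. No test was run on these counts, so no direction is read from them.

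The 95% intervals say how large a change the data leave room for. With all arrays they reached from a 0.441-fold to a 1.89-fold level in treated relative to control animals over the 28 genes, and for 13 genes the whole interval lay within a factor of 1.5 in either direction. Without prednisolone 30, 27 of the 28 intervals were narrower, the bounds were 0.478-fold and 1.73-fold, and 18 genes lay within a factor of 1.5. The tightest was SREBF2, the SREBP that controls cholesterol synthesis, with an interval of 0.879-fold to 1.17-fold without prednisolone 30. The widest was TM7SF2, a sterol reductase, with 0.478-fold to 1.31-fold.

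**Figure D2:**
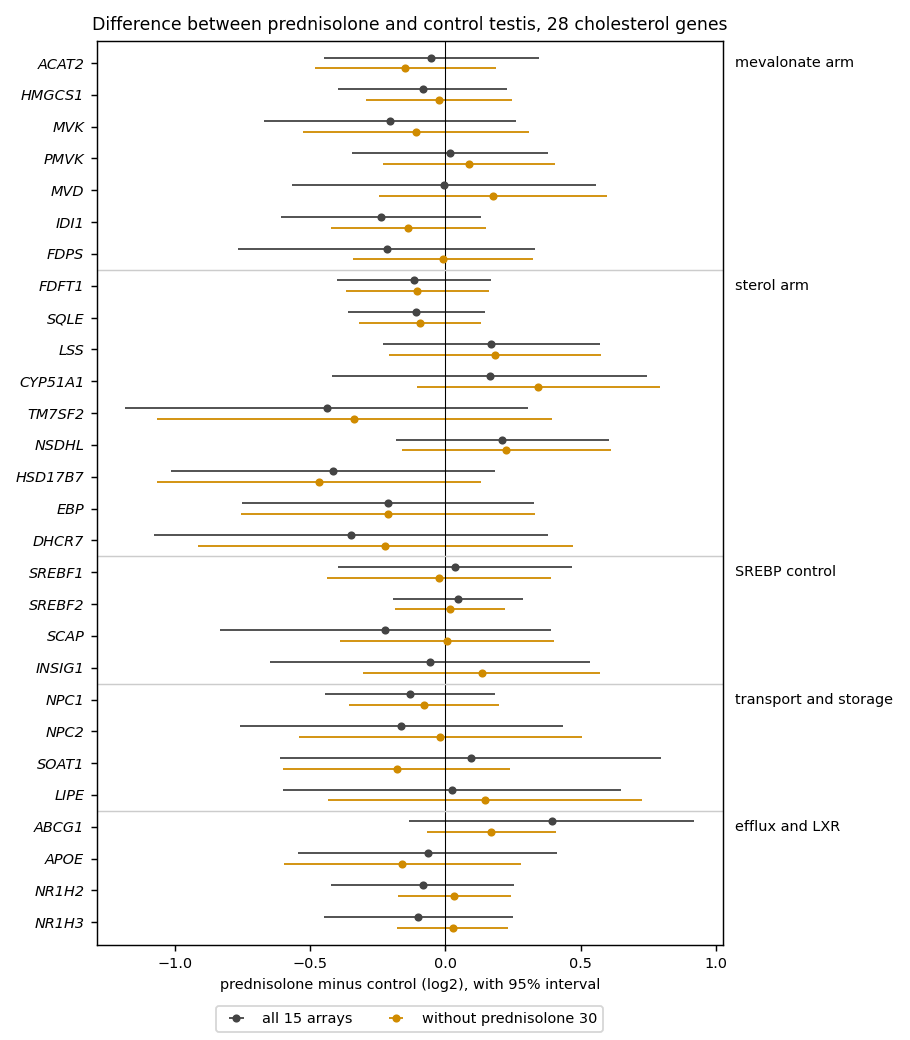
Difference between prednisolone and control animals in log2 (x axis) for the 28 tested genes (y axis), grouped by role; points are limma estimates and bars 95% intervals, grey for all 15 arrays and ochre without prednisolone 30. Every interval crosses 0, and the bars of ABCG1, SOAT1, SCAP and FDPS shrink once prednisolone 30 is left out.

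In the mevalonate arm 7 genes were tested, and 1 had higher and 6 had lower values in treated animals, or 2 and 5 without prednisolone 30, none past the threshold. Their median difference was -0.08 with all arrays and -0.02 without prednisolone 30. IDI1, the isomerase that readies isoprenoid units for joining, had the smallest unadjusted p of the arm. Its level was -1.44 at the lowest, -0.63 at the median and -0.22 at the highest in treated animals, against -0.74, -0.55 and -0.20 in controls. The lowest treated value was that of prednisolone 30, and the other treated animals lay between -0.96 and -0.22. The difference was -0.24 (95% interval -0.61 to 0.13, unadjusted p = 0.190, limma) with all arrays and -0.14 (-0.42 to 0.15) without prednisolone 30.

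The other mevalonate enzymes lay closer to 0 or moved with prednisolone 30. HMGCS1, which makes the HMG-CoA that enters the arm, differed by -0.08 with all arrays and -0.02 without that animal. MVK, mevalonate kinase, differed by -0.20 and -0.11, and FDPS, which joins the units to farnesyl diphosphate, by -0.22 and -0.01. FDPS of prednisolone 30 was at 2.93, below the 3.99 to 4.96 of the other treated animals and the 4.21 to 4.91 of the controls. PMVK, phosphomevalonate kinase, differed by 0.02 with all arrays and 0.09 without that animal. MVD, the decarboxylase that follows it, differed by -0.0039 and 0.18. ACAT2, a thiolase that condenses acetyl-CoA, differed by -0.05 and -0.15.

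The sterol arm held the genes with the widest spread between animals. Of its 9 tested genes 3 had higher and 6 lower values in treated animals in both fits, with a median difference of -0.11 with all arrays and -0.10 without prednisolone 30. HSD17B7, the ketosteroid reductase that helps to remove methyl groups from lanosterol, had levels of -3.61, -2.68 and -2.0 (lowest, median and highest) in treated animals, against -3.17, -2.17 and -1.21 in controls. The groups overlapped between -3.17 and -2.0, and the highest value was that of control 17. The difference was -0.42 (95% interval -1.02 to 0.18, unadjusted p = 0.161, limma), and -0.46 (-1.06 to 0.13, unadjusted p = 0.119) without prednisolone 30.

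TM7SF2, a reductase that works on the sterol ring after the lanosterol demethylase, had levels of -4.40, -3.64 and -2.0 in treated animals, against -3.68, -3.41 and -2.12 in controls. The highest and the lowest of the 15 values were both in treated animals, at prednisolone 27 and prednisolone 32. The difference was -0.44 (95% interval -1.18 to 0.31, unadjusted p = 0.230, limma) with all arrays and -0.34 without prednisolone 30. DHCR7, the reductase of the last step to cholesterol, had the largest range of the set, 2.56 over the 14 animals without prednisolone 30. Its levels were -2.33, -1.06 and 0.23 in treated animals, against -1.34, -1.06 and 0.23 in controls. Again prednisolone 27 was at the top and prednisolone 32 at the bottom of the treated group, and control 17 at the top of the controls. The difference was -0.35 (95% interval -1.08 to 0.38, unadjusted p = 0.327, limma) with all arrays and -0.22 without prednisolone 30.

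CYP51A1, the lanosterol demethylase, had levels of 1.19, 2.56 and 3.06 in treated animals, against 1.47, 2.48 and 3.05 in controls. The treated minimum was prednisolone 30 and the next treated animal was at 2.33, whereas controls 17 and 22 lay at 1.47 and 1.74. The difference was 0.16 (95% interval -0.42 to 0.75) with all arrays and 0.34 (-0.11 to 0.79, unadjusted p = 0.124, limma) without prednisolone 30. With all arrays, prednisolone 30 included, it was -0.20 with slide as a block and -0.02 with scan day as a block. Without prednisolone 30 it was 0.50 within slide 1, 0.22 within scan day 1 and -0.61 within slide 4, there 1 animal against 1.

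NSDHL, the dehydrogenase that removes methyl groups together with HSD17B7, had levels of -4.00, -3.63 and -3.07 in treated animals, against -4.17, -3.68 and -3.13 in controls. The difference was 0.21 (95% interval -0.18 to 0.61, unadjusted p = 0.273, limma) with all arrays and 0.23 without prednisolone 30, and with quantile normalization it turned to -0.21. LSS, which closes the rings to lanosterol, had levels of -2.98, -2.55 and -2.19 in treated animals, against -3.45, -2.71 and -2.0 in controls. The treated animals lay inside the range of the controls. The difference was 0.17 with all arrays and 0.18 (95% interval -0.21 to 0.58, unadjusted p = 0.334, limma) without prednisolone 30, while the other probe of LSS gave 0.00016 and -0.06.

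The other 3 enzymes of the arm had smaller differences. FDFT1, squalene synthase, differed by -0.11 with all arrays and -0.10 without prednisolone 30. SQLE, squalene epoxidase, differed by -0.11 and -0.09, and its 15 values all lay between 1.69 and 2.21. EBP, the sterol isomerase, differed by -0.21 in both fits, with levels of -1.72, -1.09 and -0.31 in treated animals, against -1.45, -1.0 and 0.36 in controls. The highest control was control 17, and without it EBP differed by -0.0071.

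Of the 4 SREBP control genes 2 had higher and 2 lower values with all arrays, and 3 and 1 without prednisolone 30. SREBF2 lay between 0.77 and 1.08 in treated animals, against 0.53 to 0.99 in controls, with a difference of 0.05 (95% interval -0.19 to 0.29) with all arrays and 0.02 (-0.19 to 0.22) without prednisolone 30. SREBF1, whose product mainly drives fatty acid synthesis, differed by 0.04 with all arrays and -0.02 without prednisolone 30. SCAP, the sterol-sensing escort, differed by -0.22 and 0.0049, and INSIG1, the retention protein and itself a classic SREBP target, by -0.06 and 0.14. In both SCAP and INSIG1 the sign turned when prednisolone 30, at 1.55 and -2.28, was left out.

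Among transport and storage genes, 2 had higher and 2 lower values with all arrays, and 1 and 3 without prednisolone 30. NPC1 and NPC2, which hand cholesterol out of the lysosome, differed by -0.13 and -0.16 with all arrays, and by -0.08 and -0.02 without prednisolone 30. SOAT1, which makes cholesterol esters, differed by 0.09 with all arrays and -0.18 without prednisolone 30. LIPE, hormone-sensitive lipase, splits those esters, and in rodents and humans the testis makes its own form of it in spermatids. Its levels were 0.89, 1.78 and 2.53 in treated animals, against 0.43, 1.92 and 2.53 in controls. The lowest values were those of prednisolone 30 and control 17, and the other animals of both groups lay between 1.34 and 2.53. The difference was 0.03 (95% interval -0.60 to 0.65) with all arrays and 0.15 (-0.43 to 0.73) without prednisolone 30.

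Of the 4 tested export genes 1 had higher and 3 lower values with all arrays, and 3 and 1 without prednisolone 30. Among them ABCG1 had the smallest unadjusted p of the set with all arrays. ABCG1 passes cholesterol to high-density lipoprotein and is a target of LXR. Its levels were -3.00, -2.81 and -1.06 in treated animals, against -3.31, -3.05 and -2.77 in controls. The highest value was prednisolone 30, and the next treated animal was at -2.70. The difference was 0.39 (95% interval -0.13 to 0.92, unadjusted p = 0.132, limma) with all arrays and 0.17 (-0.07 to 0.41, unadjusted p = 0.148, limma) without prednisolone 30. Leaving that animal out therefore reduced the difference by more than a factor of 1.5.

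ABCA1, the other LXR-driven exporter, was not tested, since 3 of 8 treated and 1 of 7 control arrays had its probe well above background. Its level was 1.87 on the array of prednisolone 30, against -8.72 to -6.55 on all others. In the deposited table prednisolone 30 lay 0.29 above the mean of the other animals for this probe. APOE, the apolipoprotein that carries exported cholesterol, differed by -0.07 with all arrays and -0.16 without prednisolone 30. The LXR receptors NR1H2 and NR1H3 differed by -0.08 and -0.10 with all arrays, and by 0.03 for each without prednisolone 30. Without that animal NR1H3 lay between 0.29 and 0.66 in treated animals, against 0.33 to 0.60 in controls, the smallest range of the set.

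**Figure D3:**
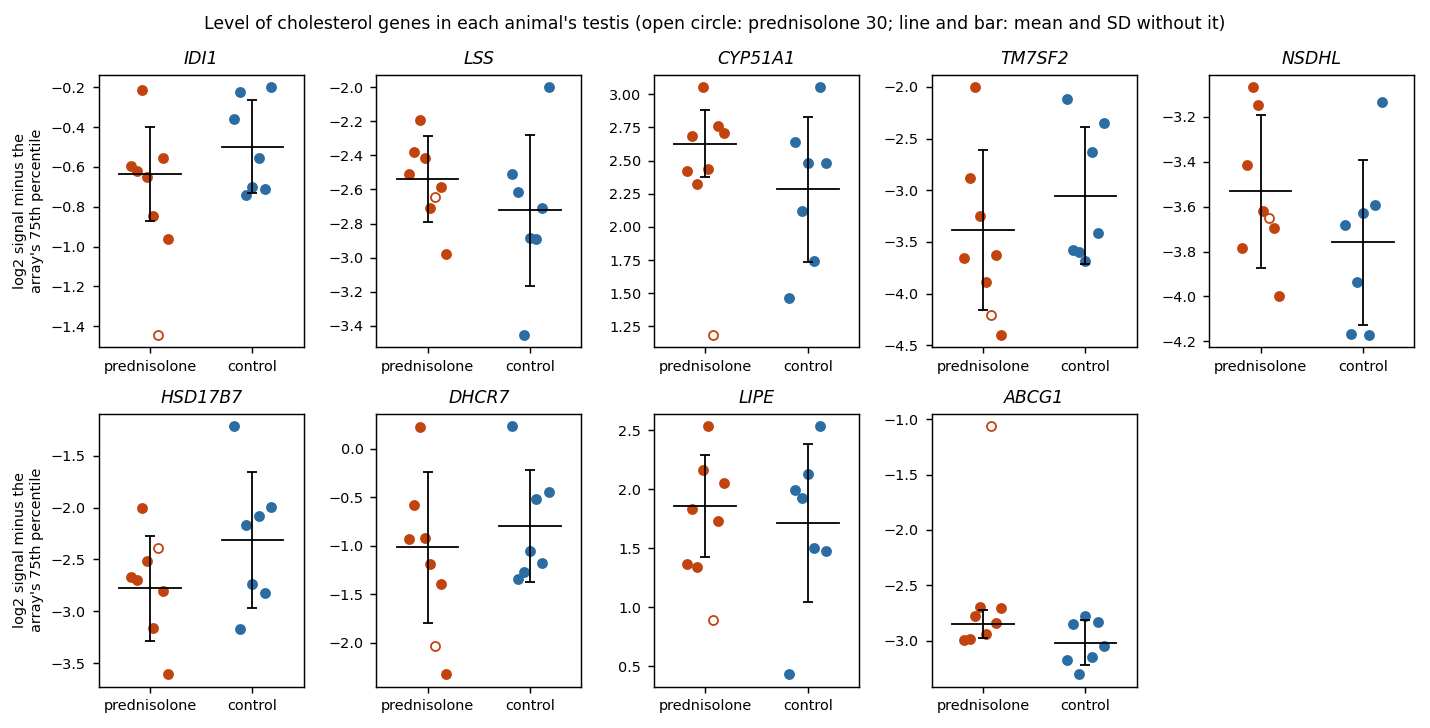
Level of 9 genes of the set in each animal (y axis, log2 signal minus the array's 75th percentile), prednisolone left and control right; the line and bar are the mean and SD without prednisolone 30, which is drawn as an open circle. The groups overlap in every panel, and prednisolone 30 lies far from the other treated animals in IDI1, CYP51A1 and ABCG1.

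A wider list of genes around the pathway was counted next. Of 36 listed genes of sterol, ester and fatty acid metabolism 35 were tested, and 0 had an adjusted p under 0.05 by limma. With all arrays 16 had higher and 19 lower values, and without prednisolone 30 17 and 18. With all arrays 1 had an unadjusted p under 0.05. That gene was NCEH1, a cholesterol ester hydrolase, with levels of -2.98 ± 0.34 in treated and -2.42 ± 0.48 in control animals (mean and SD) and a difference of -0.56 (adjusted p = 0.883, limma). Without prednisolone 30 it differed by -0.46, and by -0.45 in the deposited table. The next smallest unadjusted p values among lower genes were those of LPCAT3, an LXR-driven phospholipid enzyme, at -0.22 with all arrays and -0.16 without prednisolone 30, and MSMO1, a sterol oxidase, at -0.28 and -0.20. Without control 17 MSMO1 differed by -0.19. Among higher genes they were those of STARD3, an endosomal sterol carrier, at 0.35 with all arrays and 0.30 without prednisolone 30, SOAT2, an ester-forming enzyme, at 0.53 and 0.23, and FADS2, a fatty acid desaturase, at 0.22 and 0.12. Leaving out prednisolone 30 thus reduced the differences of SOAT2 and FADS2 by more than a factor of 1.5.

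Slide and scan day were read as batches. Treated and control animals shared slide 1, slide 4 and scan day 1, and the remaining slides and days carried animals of a single group. Slide 1 held 2 animals per group, slide 4 held 2 treated animals, 1 of them prednisolone 30, against 1 control, and scan day 1 held 6 treated animals, again with prednisolone 30, against 3 controls. Within slide 1, 11 of the 28 genes had higher values in treated animals and 22 had the sign of the difference with all arrays. Within slide 4 it was 8 and 19 genes, and within scan day 1 it was 6 and 25. Without prednisolone 30, 11 genes had higher values within slide 4, now 1 animal against 1, and 11 within scan day 1, now 5 against 3. The sign of the difference without prednisolone 30 was then shared by 13 genes within slide 4, by 23 within scan day 1 and by 23 within slide 1. The animals of each batch are also part of the fit whose sign was compared, so some sharing of sign is built in. No share over all tested genes is given beside these counts. These batch values carry no test, and the choice to repeat them without prednisolone 30 was made after seeing the data.

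The genes with the larger differences were compared in the same way. Within slide 1 TM7SF2 differed by -0.43, DHCR7 by -0.20, HSD17B7 by -0.49, IDI1 by -0.32 and ABCG1 by 0.02. Within scan day 1 they differed by -0.74, -0.65, -0.48, -0.41 and 0.36 with prednisolone 30, and by -0.66, -0.52, -0.58, -0.28 and 0.06 without it. In slide 4 HSD17B7 differed by 0.05 with prednisolone 30 and by -0.33 without it, and ABCG1 by 0.83 and -0.11.

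The spread between animals was described next. Over the 14 animals without prednisolone 30, the median gene of the set ranged over 1.12 log2 units, from 0.37 for NR1H3 to 2.56 for DHCR7. Pairwise correlations were taken over these 14 animals after each group's mean was removed, and are given as a description: all genes share the same arrays and tissue pieces. Of the 378 pairs among the 28 genes, 22 (5.82%) had r above 0.7 and 21 (5.56%) below -0.7, while over all pairs of tested genes the shares were 3.17% and 2.89%. Without control 17 they were 19 (5.03%) and 8 (2.12%) for the set, beside 1.91% and 1.76% over all pairs.

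Of the sterol arm, TM7SF2, HSD17B7, EBP and DHCR7 varied together, while CYP51A1 and SQLE ran against them. Among the 36 pairs of the sterol arm 7 had r above 0.7, 1 had r below -0.7 and the median r was 0.279. None of the 21 pairs of the mevalonate arm had r above 0.7 or below -0.7, and their median was -0.0283. The closest pair was TM7SF2 with DHCR7, at r = 0.945 (Spearman's rho = 0.903). Next came EBP with the lysosomal protein NPC2, at r = 0.945 (rho = 0.873), and HSD17B7 with EBP, at r = 0.904 (rho = 0.780). These 5 genes, TM7SF2, HSD17B7, EBP, DHCR7 and NPC2, were picked after their values were seen. CYP51A1 had r = -0.698 with EBP, -0.641 with HSD17B7, -0.525 with DHCR7 and -0.450 with TM7SF2. SQLE had r = -0.717 with EBP, -0.580 with HSD17B7, -0.460 with DHCR7 and -0.416 with TM7SF2. In the deposited table the r of SQLE with these genes lay between -0.2165 (EBP) and 0.043 (TM7SF2). NSDHL had 0.615 with TM7SF2, 0.593 with DHCR7, 0.502 with HSD17B7 and 0.461 with EBP.

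All 10 pairs among the 5 genes had r between 0.777 and 0.945. Within the 7 treated animals alone the 10 values were 0.836 to 0.953, and within the 7 controls alone 0.806 to 0.967. Leaving out any single animal kept every pair at or above 0.713, and in the authors' deposited table the 14 animals gave 0.755 to 0.950. Within scan day 1, with 8 animals, TM7SF2 and DHCR7 had r = 0.948 and HSD17B7 and EBP r = 0.962. The genes were chosen for their r over these same 14 animals, and both sources of values hold the same animals, so none of these values tests the choice. IDI1 and LSS had r = 0.798 with each other. With the 5 genes IDI1 had r between 0.510 (HSD17B7) and 0.737 (TM7SF2), and LSS between 0.412 (HSD17B7) and 0.701 (TM7SF2). Within scan day 1 the r of IDI1 with TM7SF2 was 0.448.

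Another group of genes ran opposite to them. MVK and HSD17B7 had r = -0.878 (rho = -0.767), EBP and LIPE -0.839 (rho = -0.758), and SCAP and NPC2 -0.839 (rho = -0.679). The opposite genes were MVK, FDPS, SQLE, CYP51A1, SCAP, NPC1 and LIPE, also picked after their values were seen. Over the 35 pairs between the 5 and the 7 genes, r lay between -0.878 and -0.416, with a median of -0.703. In the 7 treated animals alone the median was -0.547, in the 7 controls -0.849 and in the deposited table -0.500. Among themselves the 7 genes had a median r of 0.634, which was 0.261 in the deposited table. It was 0.473 in the treated animals alone, with a lowest r of -0.116, and 0.803 in the controls alone. The r among them also depended on control 17: without it SQLE and CYP51A1 had r = 0.035, against 0.406 with it, and SCAP and NPC1 0.141, against 0.422. Without control 17, MVK and HSD17B7 had r = -0.812 and EBP and LIPE r = -0.670.

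**Figure D4:**
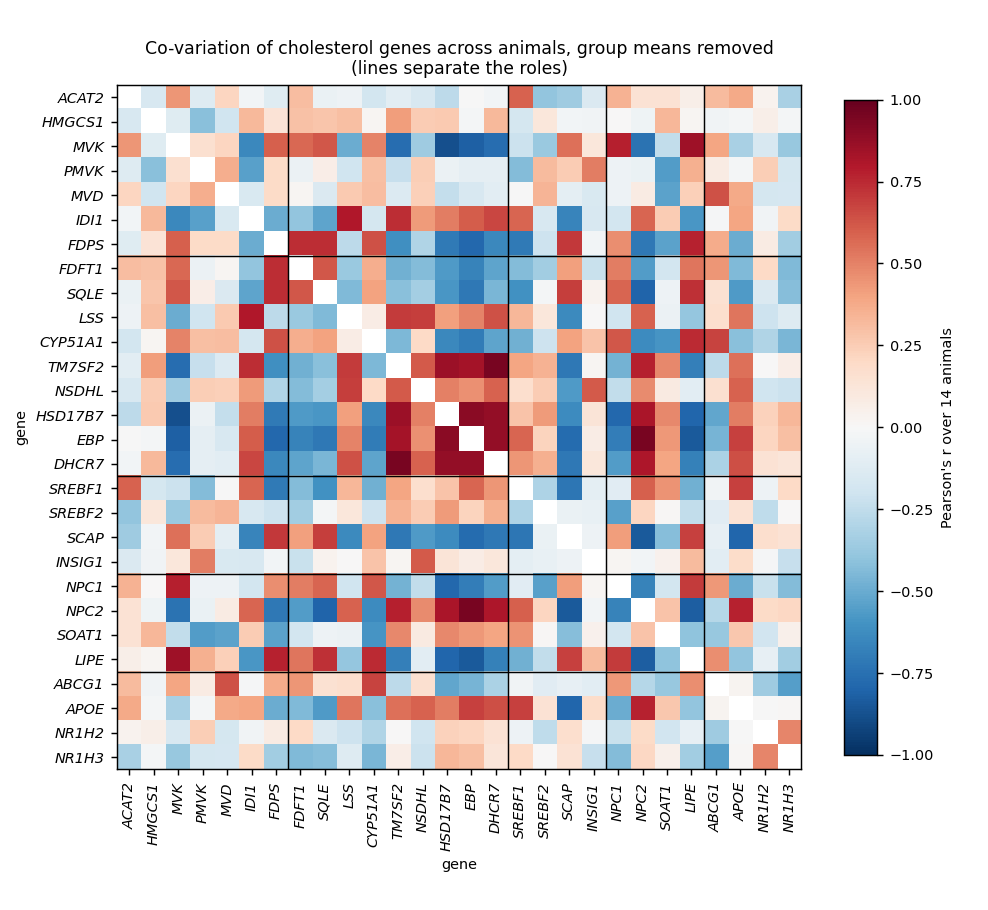
Pearson's r between the 28 tested genes over 14 animals with group means removed, both axes in the same order of roles; red is positive, blue negative, and the diagonal is blank. The red block of TM7SF2, HSD17B7, EBP and DHCR7 in the sterol arm continues at NPC2, and the same rows are blue at MVK, FDPS, SCAP and LIPE.

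Cell type markers were read as a description. Their detection is a weak check of the tissue label, since 82.2% to 89.9% of all probes were well above background on these arrays. All 5 Leydig cell markers (STAR, CYP11A1, CYP17A1, INSL3 and LHCGR), all 6 Sertoli cell markers, all 5 spermatocyte markers and all 7 spermatid markers (among them PRM1, TNP2 and ODF1) were well above background on the 14 arrays. So were all 6 macrophage, all 5 endothelium and all 5 smooth muscle markers, and 3 of 5 adipocyte markers. Epididymis had 1 of 5 markers on the array, and it did not pass the filter. The mean of the Leydig markers, as a log2 deviation from their mean over 14 animals, ran from -1.32 to 0.86 in treated animals, against -0.30 to 0.33 in controls. The lowest was prednisolone 32 and the highest prednisolone 27. The mean of the spermatid markers ran from -0.14 to 0.44 in treated animals, against -0.86 to 0.28 in controls, with control 17 lowest. In these bulk samples fewer cells of a type and less RNA per cell cannot be told apart.

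Of the 9 sterol arm genes 6 had positive and 3 negative correlations with the Leydig markers across animals. Of the 28 genes DHCR7 had the highest correlation with their mean, r = 0.818 (rho = 0.824), and 0.0892% of all tested genes, the markers included, had a correlation as high. TM7SF2 followed with r = 0.772 (rho = 0.829, 0.178% of genes), IDI1 with 0.658, HSD17B7 with 0.634, LSS with 0.599, NSDHL with 0.597 and EBP with 0.579. The negative ones were FDFT1 at -0.410, CYP51A1 at -0.225 and SQLE at -0.151. Prednisolone 27 and prednisolone 32 were the 2 animals farthest from the median of the markers. Leaving them out gave 0.542 for DHCR7, 0.682 for TM7SF2, 0.357 for IDI1 and 0.316 for EBP. The size of the relation thus rests partly on those animals. Prednisolone 27 was the only animal on its slide and on its scan day, so this animal and its batch cannot be told apart. Leaving out control 17 gave 0.912 for DHCR7 and 0.833 for TM7SF2. Within the treated animals the r of DHCR7 was 0.904 and within the controls 0.653. In the deposited table it was 0.869. Within scan day 1 it was 0.720. The marker means compared were those of Leydig, Sertoli, spermatocyte, spermatid, matrix and macrophage markers. DHCR7, TM7SF2 and HMGCS1 (r = 0.535) had a larger r in absolute size with the Leydig mean than with the others. IDI1, EBP, LSS and NSDHL did not. IDI1 had r = 0.744 with the Sertoli mean and -0.761 with the spermatocyte mean. EBP had 0.701 with the Sertoli mean, and LSS -0.791 and NSDHL -0.620 with the spermatocyte mean. SCAP had r = 0.903 with the spermatocyte mean (0.134% of genes as high) and SREBF1 0.862 with the Sertoli mean (0.468%).

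LIPE followed the spermatid markers more closely than any other gene of the set. Its r with their mean was 0.954 (rho = 0.908), and 0.0669% of all tested genes had a correlation as high. It was 0.885 without the 2 animals farthest from the median, 0.953 within treated and 0.956 within control animals, 0.907 without control 17, 0.988 within scan day 1 and 0.844 in the deposited table. MVK had r = 0.818, FDPS 0.783 and CYP51A1 0.771 with the spermatid mean, and without control 17 these were 0.697, 0.766 and 0.608. In the deposited table they were 0.652, 0.178 and 0.638. Correlations of this size with the spermatid mean were common, since 5.12% of all tested genes reached that of MVK and 7.92% that of CYP51A1. FDPS had a larger r in absolute size with the Sertoli mean, at -0.852, and 0.743% of all tested genes had an r as low. The r of FDPS with the Sertoli mean was -0.838 without control 17 and -0.599 in the deposited table.

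EBP, HSD17B7 and NPC2 ran against the spermatid mean, with r = -0.851, -0.785 and -0.781, and without control 17 with r = -0.680, -0.645 and -0.477. With the mean of the 6 macrophage markers EBP had r = 0.844, NPC2 0.836 and HSD17B7 0.757, each above the same gene's r with the Leydig mean (0.579, 0.450 and 0.634). Without control 17 the macrophage values were 0.642, 0.556 and 0.591, and the Leydig values 0.816, 0.712 and 0.764. With the mean of the connective tissue matrix markers, where control 17 was far above all others at 2.06, NPC2 had r = 0.797, EBP 0.721 and HSD17B7 0.497. Without control 17 these were 0.383, 0.291 and 0.0033. The Leydig and spermatid means themselves had r = -0.230 over the 14 animals, while the spermatid mean had r = -0.805 with the matrix mean and -0.787 with the macrophage mean. What part the cell makeup of the tissue pieces had in the spread of the cholesterol genes was not tested.

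**Figure D5:**
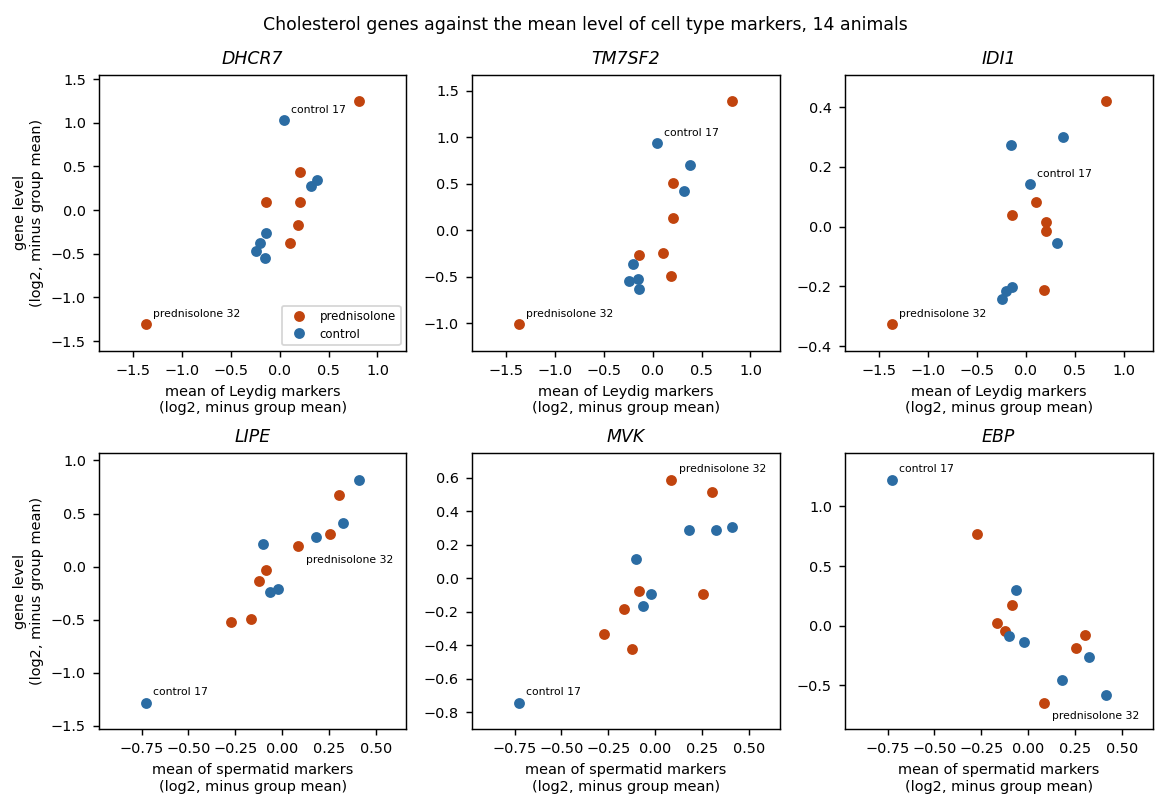
Level of a cholesterol gene (y axis) against the mean of Leydig markers (top row: DHCR7, TM7SF2, IDI1) or spermatid markers (bottom row: LIPE, MVK, EBP) in 14 animals, both in log2 with the group mean removed. Prednisolone 32 sits at the low end of the top row and control 17 at the low end of the spermatid mean, and LIPE follows a line through all animals of both groups.

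Control 17 and prednisolone 32 lay at the end of their own group in several of these genes. Control 17 was the highest control in HSD17B7 at -1.21, in EBP at 0.36, in DHCR7 at 0.23, in TM7SF2 at -2.12 and in NPC2 at 1.05, and the lowest in LIPE at 0.43, MVK at 1.25 and CYP51A1 at 1.47. Prednisolone 32 was the lowest treated animal in DHCR7 at -2.33, TM7SF2 at -4.40, HSD17B7 at -3.61 and EBP at -1.72, together with the lowest Leydig mean. Single animals moved the differences of these genes without bringing them past the threshold. Without control 17, HSD17B7 differed by -0.23, TM7SF2 by -0.28, DHCR7 by -0.18, EBP by -0.0071 and CYP51A1 by 0.03. Without prednisolone 32, HSD17B7 differed by -0.29, TM7SF2 by -0.31, DHCR7 by -0.18 and EBP by -0.12. Without prednisolone 27, TM7SF2 differed by -0.65 (95% interval -1.30 to -0.0019, adjusted p = 0.864, limma), DHCR7 by -0.54 and EBP by -0.32. Without control 17 and prednisolone 30 together the count of genes with an adjusted p under 0.05 was again 0, of the 28 and of all genes, and 12 of the 28 had higher values in treated animals. That choice was made after seeing the data. The median difference of the 28 genes was then -0.06, beside 0.01 for all tested genes.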

How the data were processed

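Total RNA of testis was measured on single-colour arrays, 8 prednisolone-treated and 7 control animals. The deposited scanner files hold spot intensity from Feature Extraction 9.5.1.1, per the file headers; per the series' design text, 2 scans were combined and the signal background-subtracted and detrended. A further table deposited by the authors gives intensity on a linear scale, brought to a common level by steps not given in the sources used here; the submitters' processing notes name R 2.11.1. No column was left without a sample.

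Spots flagged as non-uniform or outliers were masked and 42990 spots averaged to 21475 probes. The log2 processed signal minus the array's 75th percentile was tested for 18492 probes with limma 3.58.1 in R 4.3.3 (two-sided, Benjamini-Hochberg, threshold 0.05), after a check on simulated data. Probes were named through the files and a bovine gene table of assembly ARS-UCD2.0: of the 29 genes, 14 by accession, 12 by gene number, 2 by symbol and 1 by description. A gene took its brightest probe. The number of arrays limits the precision.

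The genes and lists were chosen with earlier results of these data known. All genes of the set are named; full values go to those 6 that had the lowest unadjusted p in either fit and to the 4 of largest range. Of the wider list, 3 genes per direction are named. Alternatives covered scaling, background, deposited table, filter, slide, scan day, array weights, other probes and each animal left out. Tables and plots used Python 3.11.15. No genome was used, so no coordinates or sequences are given.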

Additional observations from a re-analysis of the deposited data

Results flagged for a closer look

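In 10 of 58 groups of values (29 genes, each in the treated and in the control animals) the highest or lowest animal lay farther from its nearest neighbour than Dixon's 95% limit allows for the group's range. Chance flags about 1 in 20 groups, or 2.9 of 58. In 9 of the 10 the animal was prednisolone 30, whose array was dim and whose scanner file did not match its deposited column. It was far above the other treated animals in ABCA1 (1.87), ABCG1 (-1.06), SOAT1 (-2.97) and SREBF2 (1.08). It was far below them in CYP51A1 (1.19), SCAP (1.55), INSIG1 (-2.28), NR1H2 (1.47) and NR1H3 (-0.51). SOAT1 and INSIG1 were not well above background on its array. In the remaining group control 17 was far above the other controls in ABCA1, at -6.55, the probe that was well above background on 1 of 7 control arrays.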

How the results depend on the processing

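No alternative brought any of the 28 genes past the threshold by limma: adjusted p stayed at or above 0.829 over 197 differences under other settings and at or above 0.820 over 420 with 1 animal left out. The count of genes past it was 0 in each, the whole array included. At an unadjusted p under 0.05 none of the 28 genes appeared, with the exception of TM7SF2 without prednisolone 27, at 0.0494 by limma. For all genes that count was 326 with all arrays, 72 with normexp, 731 in the deposited table, 857 with array weights, 198 without control 22, 559 without prednisolone 30 and 666 without control 17 as well. Of the 28 genes, 9 had higher values with all arrays, 5 with median scaling and 14 with normexp background correction. Over all tested genes the shares with higher values were 51.9%, 42.9% and 64.7%. Signs were compared under the other scalings and background, the deposited table, slide or scan day as a block, and animals left out. The 12 genes that kept their sign in these fits were HMGCS1, MVK, IDI1, FDPS, FDFT1, SQLE, TM7SF2, HSD17B7, EBP, DHCR7, NPC1 and ABCG1. Array weights, the fit without the filter and values within single batches were not part of this comparison. Within slide 1 HMGCS1 and SQLE turned to 0.05, and within slide 4 HSD17B7 turned to 0.05 and EBP to 0.34. Without prednisolone 30, MVK turned to 0.11, EBP to 0.29 and ABCG1 to -0.11 within slide 4, and MVK turned to 0.029 within scan day 1. The 12 genes were picked as those without a turn in the compared fits, so the list itself tests nothing. The cause of the turns was not tested. Over all 28 genes the sign of a difference that had not passed turned in 31 of the 197 cases. With 1 animal left out, it turned in 36 of the 420. With median scaling it turned for PMVK to -0.046, SREBF1 to -0.027, SREBF2 to -0.017 and LIPE to -0.038. With quantile normalization it turned for NSDHL to -0.21 and SOAT1 to -0.10. With normexp background correction it turned for ACAT2 to 0.13, MVD to 0.23, INSIG1 to 0.24, NPC2 to 0.014 and NR1H3 to 0.018. In the deposited table it turned for MVD to 0.15, SREBF1 to -0.073, INSIG1 to 0.17, SOAT1 to -0.16 and NR1H3 to 0.0095. With slide as a block it turned for PMVK to -0.13, CYP51A1 to -0.20, INSIG1 to 0.081, LIPE to -0.096 and APOE to 0.065. With scan day as a block it turned for PMVK to -0.12, LSS to -0.024 and CYP51A1 to -0.021. Without control 17 and prednisolone 30 together it turned for MVD to 0.19, INSIG1 to 0.10, NPC2 to 0.20, SOAT1 to -0.18, LIPE to -0.067, NR1H2 to 0.064 and NR1H3 to 0.037. Leaving out 1 animal at a time gave log2 differences of -0.15 to 0.050 for ACAT2, -0.048 to 0.12 for PMVK, -0.14 to 0.18 for MVD, -0.067 to 0.12 for SREBF1, -0.0035 to 0.072 for SREBF2 and -0.32 to 0.0049 for SCAP. It gave -0.18 to 0.14 for INSIG1, -0.27 to 0.052 for NPC2, -0.18 to 0.19 for SOAT1, -0.19 to 0.16 for LIPE, -0.16 to 0.033 for APOE, -0.12 to 0.034 for NR1H2 and -0.14 to 0.027 for NR1H3. The choice to leave out control 17 and prednisolone 30 together was made after seeing the data. No paired analysis was possible because the groups share no animal numbers. The median of all genes moved by less than 0.1 under each scaling. The planned search of promoter letters was not run, since promoter sequences were not used here. Signal limits ABCA1, which was not tested.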
